A study of Mus musculus with 30 samples.

Results

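Foxc1, Foxc2, Tbx1, Tcf21, Msc, Six4, Eya1 and Eya2 encode regulators of head muscle and its surrounding mesenchyme. These genes were followed in mouse cultures of extraocular muscle, which the sample titles call cell culture. Extraocular muscles move the eyeball. The genes are 8 of the 18194 that the arrays name alone, and all probe sets on either array type were taken whose only platform symbol is any of these 8. That gave 15 probe sets, 10 of the 22690 on the A arrays and 5 of the 22575 on the B arrays, or 15 of 45265 in all. A probe set is a group of short probes on the array that together report 1 transcript or a few, and its value here is an intensity, a brightness on a linear scale. The arrays were made from total RNA at 0, 4, 12, 24 and 48 h, with 3 arrays of each type at each time, 30 arrays in all. The groups were the cultures at 4, 12, 24 and 48 h, each set against those at 0 h. The labels give neither the strain, the age and the culture medium nor the event at 0 h. They do not say whether the 3 arrays of a time came from separate cultures, so p-values measure only the spread between these arrays, which may be technical, and their number limits the precision. The B array that is replicate 1 at 0 h is titled extraocular muscle, but its source name is leg muscle. It was kept under its title, and log2 changes from 0 h on the B arrays are also given without it. Sums of cell type markers on the B arrays include it.

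Skeletal muscles of the head arise from mesoderm in front of the somites and do not use the Pax3-led programme that starts muscle formation in the trunk and limbs. Forkhead factors of the Foxc family act in head and periocular mesenchyme, the T-box factor Tbx1 and the basic helix-loop-helix factors Tcf21 and Msc act in the mesoderm of the pharyngeal arches that forms jaw and facial muscles, and the homeodomain protein Six4 and its relatives bind DNA with Eya proteins as their coactivators. Both of these families also act in muscle stem cells and growing muscle fibres, where Six4 and its relatives bind the MEF3 element in the promoters of genes such as Myog.

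Of the 15 member probe sets, 9 had a mean intensity above the limit for testing, the 40th percentile of all probe sets of their array type, and 6 did not. The limit was an intensity of 101 for the A type and 199.6 for the B type. Foxc2, Foxc1, Six4, Eya1 and Tcf21 had at least 1 tested probe set, while every probe set of Tbx1, Msc and Eya2 lay below the limit. The probe set of Foxc1 just inside the A limit averaged 106.6 over the 15 arrays, and that of Six4 just outside it averaged 73.4. Of the skeletal muscle markers, all 7 listed genes (Des, Ckm, Acta1, Myh3, Ttn, Actn2 and Chrna1) were bright enough to be tested on the A arrays.

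Among the 9 tested probe sets, Foxc2's was the one that passed after adjustment, with a fall at 24 h. In limma's F-test for any difference over the 5 times 1 of 9 member probe sets passed an adjusted p of 0.05, against 4.31% of the 27083 probe sets tested on both array types (7.59% on the A arrays, which hold Foxc2, and 1.02% on the B arrays). At 24 h against 0 h the count was also 1 of 9, against 3.27% of all (5.56% on the A arrays, 0.97% on the B arrays). No member passed at 4 h, where 0.0148% of all probe sets did, at 12 h, where 0.222% did, or at 48 h, where 3.82% did. Between neighbouring times no member passed either, beside 0.151% of all probe sets for 12 h against 4 h, 0.0443% for 24 h against 12 h and 0.347% for 48 h against 24 h. At an unadjusted limma p of 0.05 the F-test took 3 member probe sets, that of Foxc2 and the 2 of Six4 on the B arrays. It took 16.2% of all (22.3% on the A arrays, 10% on the B arrays). The unadjusted F-test p was 0.00288 for Foxc2, 0.00318 for Six4 1456862_at and 0.00412 for Six4 1439753_x_at in limma, and the adjustment is made within each array type. At that level no member passed at 4 h (5.59% of all), 1 passed at 12 h (Foxc2, beside 10.5%), 1 at 24 h (Foxc2, beside 14.9%) and 1 at 48 h (a Six4 probe set, beside 15%). For the neighbouring times it took no member for 12 h against 4 h (9.57% of all), 2 for 24 h against 12 h (Foxc2 and a Six4 probe set, beside 5.64%) and 1 for 48 h against 24 h (Foxc2, beside 8.7%). The median log2 change of the 9 tested member probe sets, several of which share a gene, was 0.15 at 4 h, -0.11 at 12 h, -0.16 at 24 h and -0.37 at 48 h. Without the B array of leg muscle source name it was 0.15, -0.11, -0.11 and -0.29. The median over all tested probe sets lay between -0.01 and 0.00 at every time.

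**Figure D1:**
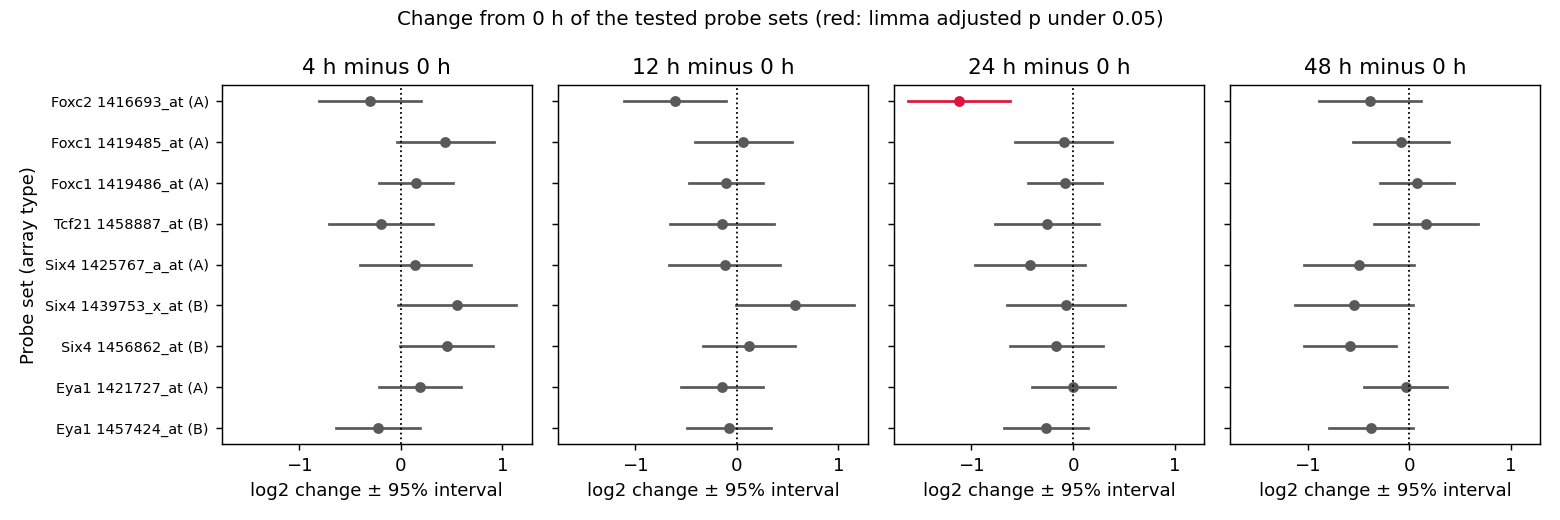
The log2 change of each tested member probe set (rows, with its array type) at 4, 12, 24 and 48 h minus 0 h, on log2 of intensity plus 16; points are limma estimates and lines their 95% confidence intervals. Foxc2 at 24 h, in red, passed an adjusted p of 0.05, and the other estimates, in grey, did not.

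Foxc2, a forkhead transcription factor known for its part in mesoderm, lymphatic vessels and periocular mesenchyme, was lowest at 24 h. Its probe set, 1416693_at on the A arrays, read 916, 1197 and 1784 at 0 h, 830, 1351 and 917 at 4 h, 707, 662 and 1155 at 12 h, 570, 526 and 605 at 24 h, and 977, 828 and 1073 at 48 h. All 3 arrays at 24 h lay below every array of the other 4 times, and the spread between arrays was widest at 0 h. The mean was 567 ± 39.6 at 24 h, against 1299 ± 443 at 0 h (SD, n = 3 each). Foxc2 thus fell by 1.12 on the log2 scale at 24 h (SE 0.24, 95% interval -1.62 to -0.62), a level 2.18-fold lower, with a limma adjusted p of 0.0096. Because RNA came from whole cultures, fewer cells that express Foxc2 and less Foxc2 RNA per cell cannot be told apart.

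The other comparisons of Foxc2 did not pass. At 12 h the log2 change from 0 h was -0.61 (limma adjusted p = 0.277), and at 4 h it was -0.30 (adjusted p = 0.935). At 48 h Foxc2 averaged 959 ± 123 (SD, n = 3), and its range lay apart from and above that at 24 h. The log2 difference of 48 h minus 24 h was 0.74 (95% interval 0.24 to 1.24), with a limma adjusted p of 0.207 in the fit to all 5 times and 0.0332 in a fit to those 2 times alone. Against 0 h the 48 h log2 change was -0.39 (95% interval -0.89 to 0.12, adjusted p = 0.397), and the ranges overlapped. Ordered by mean, the times ran 0, 4, 48, 12 and 24 h, and the mean ± SD of every pair of neighbours in that order overlapped. The F-test over all times gave an adjusted p of 0.0423. It did not pass without any 1 of 10 of the 15 A arrays, namely replicate 2 or 3 at 0 h, replicate 3 at 4 h, replicate 1 at 12 h and each array at 24 and 48 h, and the adjusted p then lay between 0.0531 and 0.138. The fall at 24 h passed without each array in turn.

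Foxc1, the close relative of Foxc2 that acts in the anterior segment of the eye and in head mesenchyme, passed in no comparison. Its probe set 1419486_at read 285, 299 and 324 at 0 h, 348, 376 and 295 at 4 h, 294, 312 and 239 at 12 h, 244, 247 and 382 at 24 h, and 300, 335 and 326 at 48 h. The ranges of neighbouring times overlapped throughout. The log2 change at 24 h against 0 h was -0.08 (95% interval -0.44 to 0.28) and at 48 h it was 0.08 (95% interval -0.29 to 0.44), so a fall as large as that of Foxc2 at 24 h lies outside the interval. The dimmer probe set 1419485_at read 146, 140 and 134 at 4 h, all above the 75.8, 120 and 107 at 0 h, but the log2 change of 0.44 (95% interval -0.04 to 0.92) did not pass (limma adjusted p = 0.864). It averaged 105 ± 7.29 at 12 h, 94.6 ± 30.3 at 24 h and 93.0 ± 3.91 at 48 h (SD, n = 3 each). Both Foxc1 probe sets were drawn from the same sequence record and are not independent. Their log2 values had a Pearson r of 0.59 over the 15 A arrays.

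**Figure D2:**
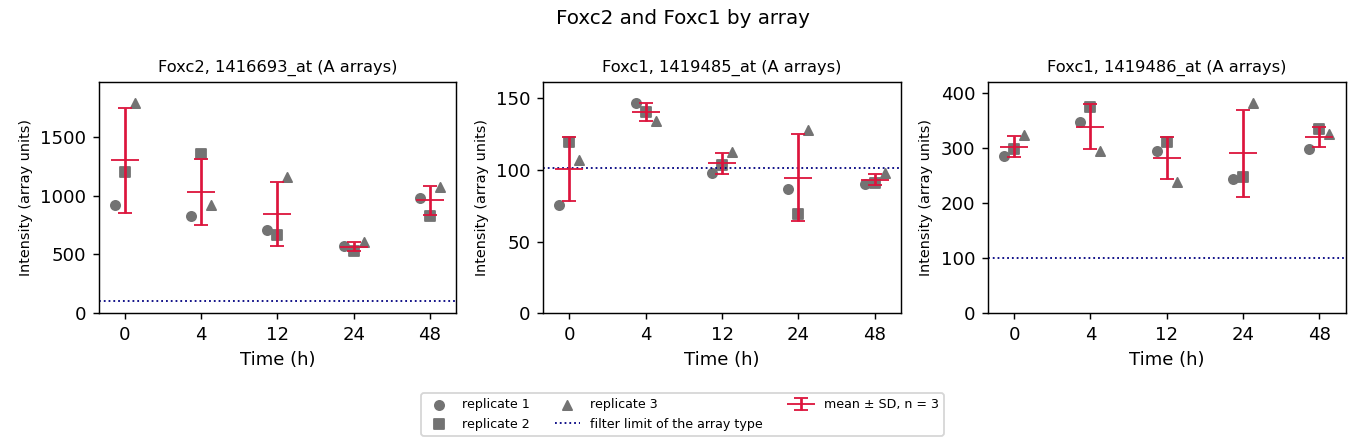
Intensity (array units) of Foxc2 and of both Foxc1 probe sets on the A arrays by time in hours; each grey point is 1 array with its replicate number by shape, the red bars are the mean ± SD of 3 arrays and the dotted line is the limit for testing. The 3 Foxc2 arrays at 24 h sit between 526 and 605, below all others, while the Foxc1 values at 24 h overlap those at 0 h.

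Tbx1, the T-box factor required for much of the pharyngeal arch musculature, was dim on the A arrays and has no probe set of its own name on the B arrays. Its probe set 1425779_a_at read 72.4, 144 and 51.2 at 0 h, 80.6, 53.8 and 58.9 at 4 h, 28.9, 109 and 8.0 at 12 h, 110, 9.2 and 12.8 at 24 h, and 55.4, 9.5 and 52.1 at 48 h. Arrays of the same time differed by up to more than 10-fold, and the ranges of all 5 times overlapped. In a fit without the limit on dim probe sets the log2 change at 24 h was -1.12 (95% interval -2.47 to 0.23), an interval that holds both no change and a larger one than that of Foxc2.

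Tcf21 and Msc are related basic helix-loop-helix factors that are needed together for jaw muscles in the mouse. Tcf21 had a bright probe set on the B arrays, 1458887_at, which read 862, 933 and 813 at 0 h, 715, 821 and 736 at 4 h, 824, 883 and 662 at 12 h, 834, 840 and 544 at 24 h, and 1157, 1281 and 627 at 48 h. At 48 h 2 arrays were above all others and replicate 3 was below all arrays at 0 h, so the groups overlapped. The log2 change at 48 h was 0.17 (95% interval -0.34 to 0.68, limma adjusted p = 0.892), and without the B array of leg muscle source name it was 0.16. At 24 h it was -0.25, and -0.26 without that array. The A probe set of Tcf21, 1417447_at, lay below the limit at 6.6 to 78.9 over all arrays. It averaged 0.28 times the limit of its type, while the B probe set averaged 4.19 times its own. Which of these differing probe sets reports Tcf21 was not tested. Msc, also called musculin or MyoR, had a single probe set, 1418417_at on the A arrays, with 12.3 to 72.9 over all arrays and means of 45.7 ± 29.3 at 0 h, 31.6 ± 18.8 at 4 h, 27.1 ± 17.3 at 12 h, 41.6 ± 23.4 at 24 h and 30.0 ± 10.7 at 48 h (SD, n = 3 each). The ranges of all 5 times overlapped.

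Six4 encodes a homeodomain protein that acts in muscle formation. The RefSeq promoter table (GRCm38.p6) holds windows of 250 bases before to 50 after the start site for 4 of the 8 genes, Foxc1, Tbx1, Tcf21 and Six4. Foxc2, Msc, Eya1 and Eya2 are named only. The MEF3 motif was searched as TCAGGTTTC on both strands, because it is the element that Six4 and its relatives bind. It occurs in 141 of all 32851 windows, or 0.429%, and in 1 window of the members, at 1 of the Six4 start sites. That window is chr12:73113196-73113495 on the minus strand and is shown 5′ to 3′ in the direction of the gene, with the match in capitals. The match reads on the reverse strand and starts 99 bases before the start site.
Six4 promoter window: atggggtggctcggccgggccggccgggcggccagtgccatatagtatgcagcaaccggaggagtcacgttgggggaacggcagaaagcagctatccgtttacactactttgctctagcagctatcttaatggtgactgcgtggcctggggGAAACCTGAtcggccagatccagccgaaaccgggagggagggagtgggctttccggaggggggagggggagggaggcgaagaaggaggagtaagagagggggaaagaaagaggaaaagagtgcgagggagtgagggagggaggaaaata
A match is a description of these letters and not a bound site. The E-box CANNTG, bound by factors of the MyoD, Tcf21 and Msc class, occurs in 72.3% of all windows and, among the members, in 1 of the Tbx1 windows. The forkhead motif GTAAACA (3.65% of windows) and the T-box motif TCACACC (3.98%) matched no member window.

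Six4 was measured by 4 probe sets, all with their highest mean at 4 or 12 h. The 3 tested ones had their lowest mean at 48 h, and none passed. The probe set 1456862_at on the B arrays read 984, 815 and 954 at 0 h, 1064, 1362 and 1372 at 4 h, 826, 1135 and 1053 at 12 h, 699, 718 and 1076 at 24 h, and 509, 541 and 807 at 48 h. All 3 arrays at 4 h were above and all 3 at 48 h below those at 0 h. The log2 change from 0 h was 0.45 at 4 h (limma adjusted p = 0.957) and -0.58 at 48 h (95% interval -1.04 to -0.13, adjusted p = 0.315). Without the array of leg muscle source name these were 0.50 and -0.53. The F-test gave an adjusted p of 0.140, and 0.212 without that array.

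The probe set 1439753_x_at on the B arrays, whose suffix marks possible cross-hybridisation, read 664, 949 and 558 at 0 h, 833, 1119 and 1228 at 4 h, 850, 1212 and 1148 at 12 h, 459, 725 and 919 at 24 h, and 577, 358 and 528 at 48 h. Its ranges at 4 h and 12 h overlapped that at 0 h through 1 array. The log2 change was 0.56 at 4 h, 0.57 at 12 h (limma adjusted p = 0.619) and -0.55 at 48 h (adjusted p = 0.525), and 0.51, 0.53 and -0.59 without the array of leg muscle source name. Both B probe sets of Six4 come from the same sequence record, so they are not independent, and their log2 values had a Pearson r of 0.79 over the 15 arrays. The comparison of 48 h with 4 h was not among those tested.

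On the A arrays the brighter Six4 probe set, 1425767_a_at, read 592, 1136 and 554 at 0 h, 926, 592 and 929 at 4 h, 562, 787 and 653 at 12 h, 441, 449 and 767 at 24 h, and 540, 503 and 481 at 48 h. The 48 h values lay below all those at 0 h, and replicate 2 at 0 h was the brightest of the 15. The log2 change at 48 h was -0.49 (limma adjusted p = 0.306), and at 4 h it was 0.15 (95% interval -0.40 to 0.69), an interval that holds the 4 h changes of both B probe sets. The dim A probe set, 1427701_a_at, read 46.0 to 121 over all arrays and, in the fit without the limit, had log2 changes of -0.48 at 24 h and -0.26 at 48 h.

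**Figure D3:**
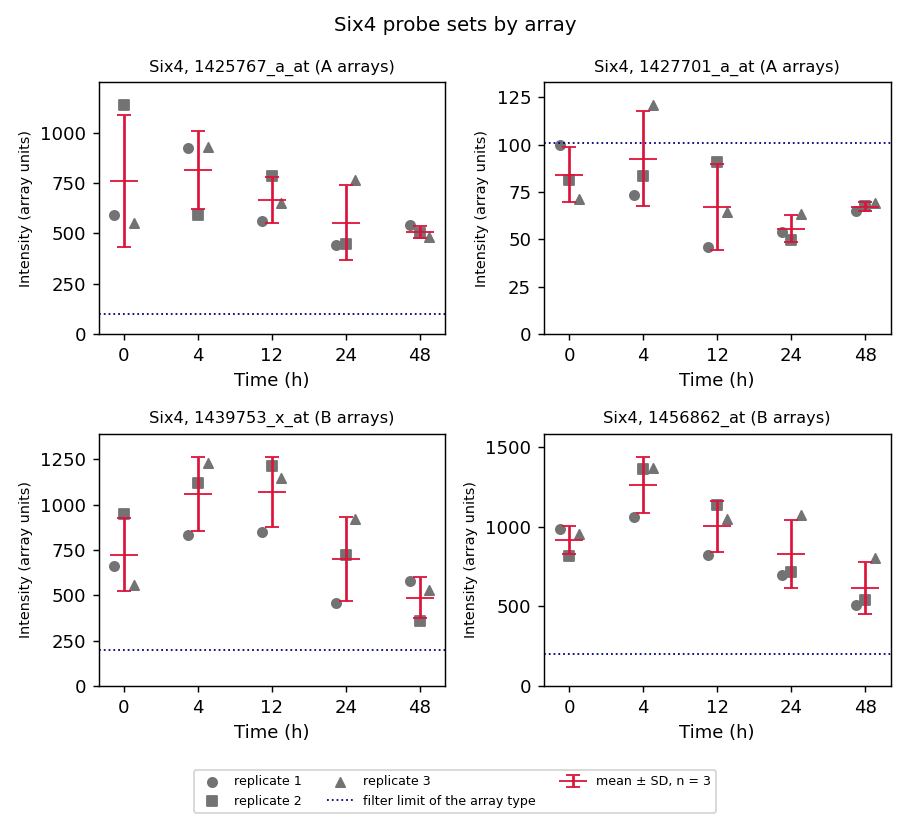
Intensity (array units) of the 4 Six4 probe sets by time in hours, A arrays above and B arrays below; each grey point is 1 array with its replicate number by shape, red bars are the mean ± SD of 3 arrays and the dotted line is the limit for testing. In 1456862_at the arrays at 4 h lie at 1064 to 1372 and those at 48 h at 509 to 807, against 815 to 984 at 0 h.

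Eya1, a phosphatase and coactivator that binds Six4 and its relatives, had 2 tested probe sets, and neither passed. The B probe set 1457424_at read 1385, 1194 and 1124 at 0 h, 759, 1487 and 1028 at 4 h, 1053, 1178 and 1271 at 12 h, 1006, 1105 and 952 at 24 h, and 924, 883 and 1034 at 48 h. The arrays at 24 and 48 h all lay below those at 0 h, by little. The log2 change at 48 h was -0.37 (95% interval -0.79 to 0.04, limma adjusted p = 0.558), and -0.29 without the array of leg muscle source name. At 24 h it was -0.27, and -0.18 without that array. The A probe set 1421727_at read 110 to 190 over all arrays, with log2 changes of 0.00 at 24 h (95% interval -0.40 to 0.41) and -0.04 at 48 h (95% interval -0.44 to 0.37).

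The dim Eya1 probe set 1443117_at on the B arrays read 11.3, 132 and 70.0 at 0 h, 22.9, 74.1 and 50.3 at 4 h, 20.8, 32.2 and 62.6 at 12 h, 47.7, 65.2 and 75.4 at 24 h, and 3.8, 4.0 and 4.7 at 48 h. The 48 h values were the lowest of the 15 and close together. In the fit without the limit the log2 change at 48 h was -1.80 (SE 0.51, limma adjusted p = 0.205). Without the array of leg muscle source name, which gave the 11.3 at 0 h, it was -2.48 and passed (adjusted p = 0.0295), a setting chosen after seeing the data. Leaving out each other B array in turn gave no value that passed, and without replicate 2 at 0 h the change was -1.26 (adjusted p = 0.493). At the dim 48 h values the pseudocount of 16 sets much of the size of this change. Eya2, a second coactivator of the family, had 1 probe set, 1424127_at on the A arrays, which read 10.9 to 68.4 over all arrays and passed in no comparison without the limit.

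**Figure D4:**
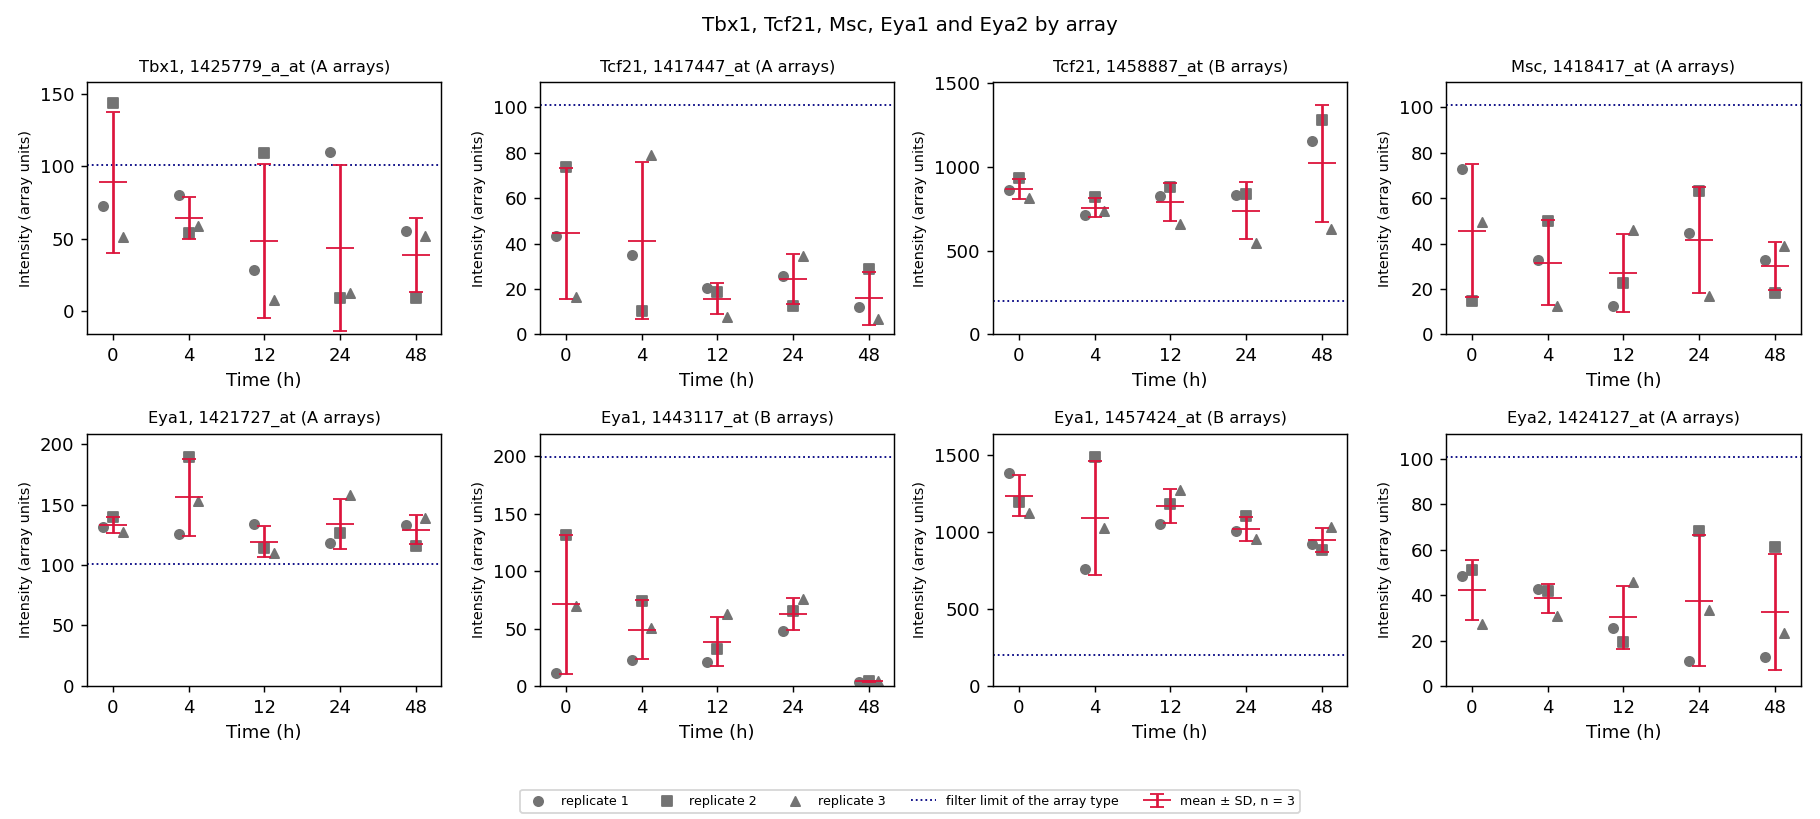
Intensity (array units) of the Tbx1, Tcf21, Msc, Eya1 and Eya2 probe sets by time in hours; each grey point is 1 array with its replicate number by shape, red bars are the mean ± SD of 3 arrays and the dotted line is the limit for testing of that array type. The Tbx1, Msc and Eya2 probe sets have means below the line at every time, and the points of 1443117_at at 48 h lie at 3.8 to 4.7.

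Relatives of these genes were counted from 3 lists. Of 8 other genes of the families of Six4, Eya1 and their Dach cofactors, 4 were tested (Six2, Six3, Eya3 and Eya4). None rose or fell at any time in limma after adjustment, and at an unadjusted p of 0.05 the counts were 1 gene at 4 h (Six3), 1 at 12 h (Eya3), 0 at 24 h and 1 at 48 h (Eya4), or 1, 2, 1 and 0 without the B array of leg muscle source name. Of 27 other regulators of head mesoderm and periocular mesenchyme, 17 were tested, and 1 fell, Tbx3, a T-box repressor. At an unadjusted p of 0.05 the list had 1 gene at 4 h, 3 at 12 h, 5 at 24 h and 4 at 48 h, beside the 5.59%, 10.5%, 14.9% and 15% of all probe sets, and a gene counts here if any of its probe sets passed. Without the B array of leg muscle source name these counts were 2, 3, 5 and 4. Lmx1b, a homeodomain factor of periocular mesenchyme, then passed at 24 h with a log2 change of 2.17 (limma adjusted p = 0.0489), against 1.37 (adjusted p = 0.384) with all arrays, and it is named after its values were seen. The median log2 change over the tested probe sets of the 17 was 0.02 at 24 h and 0.24 at 48 h, beside medians of -0.01 and 0.00 over all probe sets, and without that array it was 0.04 and 0.24.

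Tbx3 read 144, 146 and 116 at 24 h, against 265, 290 and 209 at 0 h, on its tested A probe set 1448029_at. The groups did not overlap, and the log2 change was -0.83 (SE 0.17, limma adjusted p = 0.00796). At 48 h this probe set averaged 202 ± 17.9, against 255 ± 41.5 at 0 h (SD, n = 3 each), with a log2 change of -0.30 (adjusted p = 0.346). The tested B probe set, 1437479_x_at, carries the suffix that marks possible cross-hybridisation. It read 590, 963 and 536 at 24 h and 812, 583 and 586 at 48 h, against 1600, 1052 and 1535 at 0 h. In the limma F-test over all times it did not pass (adjusted p = 0.0571). The log2 changes were -1.01 at 24 h (adjusted p = 0.0459) and -1.05 at 48 h (adjusted p = 0.0352). Without the array of leg muscle source name they were -0.90 (adjusted p = 0.190) and -0.95 (adjusted p = 0.163). Without replicate 3 at 0 h they also failed to pass, at -0.93 (adjusted p = 0.154) and -0.97 (adjusted p = 0.117). The 24 h call on the A arrays passed without each array in turn.

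Of 5 myogenic regulatory factors, 3 were tested (Myod1, Myog and Pax7). After adjustment 1 fell at 48 h, Myod1, beside 3.82% of all probe sets that passed then. At an unadjusted limma p of 0.05 the list had 0 genes at 4, 12 and 24 h. It had 2 at 48 h (Myod1 and Pax7), beside 15% of all probe sets, or 1 without the B array of leg muscle source name. Myod1, the factor that commits cells to muscle, averaged 4413 ± 647 at 48 h, against 7444 ± 1899 at 0 h (SD, n = 3 each), on its A probe set, where it fell by 0.73 on the log2 scale (SE 0.18, limma adjusted p = 0.0232). This call was lost without replicate 1 or 2 at 0 h or replicate 1 or 3 at 48 h, with adjusted p between 0.0566 and 0.120. Its B probe set, 1447675_x_at, carries the suffix that marks possible cross-hybridisation. It was dim, at 229 ± 98.4 at 0 h and 270 ± 109 at 48 h (SD, n = 3 each), and the groups overlapped. The log2 change on it at 48 h was 0.21 (SE 0.50, limma adjusted p = 0.948). Without the array of leg muscle source name it was 0.51 (adjusted p = 0.848). With so wide an SE the B probe set cannot decide whether Myod1 fell. At 24 h, where Foxc2 and Tbx3 were lowest on the A arrays, the A probe set of Myod1 averaged 6128 ± 129 (SD, n = 3). Its log2 change was -0.24 (limma adjusted p = 0.520).

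Markers of the cell types that such a culture can hold were summed over the same A arrays. The 8 fibroblast and mesenchyme markers summed to 3710 to 4499 at 24 h and 3994 to 4336 at 48 h, against 2577 to 3062 at 0 h, without overlap. Col3a1 made up 81.3% to 90.6% of this sum on every array, and the other 7 genes summed to 476 to 727 at 24 h and 423 to 747 at 48 h, against 318 to 548 at 0 h, with overlap. On the B arrays 3 genes of the list summed to 292 to 708 at 24 h, against 363 to 820 at 0 h. Of the 4 tested, 1 rose, the collagen gene Col3a1, with a log2 change of 0.52 at 24 h (limma adjusted p = 0.0153). The 6 smooth muscle and pericyte markers summed to 16652 to 17913 at 24 h, against 11550 to 18022 at 0 h, and 1 of 4 tested, the actin-binding gene Tagln, rose (log2 change 1.56, adjusted p = 0.00154). At an unadjusted limma p of 0.05 Acta2 also passed at 24 h. On the B arrays 1 gene of this list read 588 to 768 at 24 h, against 77.0 to 510 at 0 h, without overlap, and 96.9 to 316 at 48 h. Here and for the fibroblast list the B values at 0 h include the array of leg muscle source name. The 7 skeletal muscle markers summed to 34561 to 48203 at 24 h, against 33396 to 40414 at 0 h, with overlap. After adjustment 2 rose at 24 h, the sarcomere genes Actn2 (log2 change 1.93) and Myh3 (log2 change 0.77). Ckm also passed at 24 h at an unadjusted limma p of 0.05. The median log2 change over all tested probe sets of this list was -0.02 at 24 h. Of 6 endothelial markers Kdr alone was tested. Their sums were 259 to 335 at 24 h, against 265 to 415 at 0 h, with Pecam1, Cdh5, Tie1, Tek and Emcn below the limit. After adjustment no Schwann cell, macrophage or adipocyte marker passed at any time, and at an unadjusted limma p of 0.05 only Csf1r at 4 h did, while no adipocyte marker was bright enough to be tested. The part of these differences in cell type markers in the fall of Foxc2 was not tested.

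The probe sets most like the members in pattern were found by Pearson r of log2 values over the 15 arrays of a type, which share their scaling, so r describes these arrays only. Foxc2 was most like Acsl5 (r = 0.92), Polr3g (r = 0.92) and Spred2 (r = 0.91) among 12529 probe sets of other genes. They were picked as the highest r of so many. None of these 3 passed the limma F-test over time (adjusted p = 0.168, 0.292 and 0.151). The brighter A probe set of Six4 was most like Trrap (r = 0.91), Zfp704 (r = 0.88) and Sesn3 (r = 0.87). Foxc1 1419485_at was most like Zfp326 (r = 0.89), Aspm (r = 0.88) and Ska2 (r = 0.88). On the B arrays Six4 1456862_at was most like Foxn3 (r = 0.83), Tonsl (r = 0.83) and Cenpj (r = 0.82), and Six4 1439753_x_at was most like Fzd5 (r = 0.86), Epb41l2 (r = 0.84) and Snrnp200 (r = 0.84). Eya1 1457424_at was most like 4933433G19Rik (r = 0.77), 4930548G14Rik (r = 0.77) and 9330159F19Rik (r = 0.76). Between members, the r of Foxc2 with the 2 Foxc1 probe sets was 0.37 and 0.25 and with the brighter A probe set of Six4 it was 0.16. Pairs of different members ranged from -0.63, between Six4 1456862_at and Tcf21 on the B arrays, to 0.71, between Foxc1 1419485_at and the brighter A probe set of Six4.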

How the data were processed

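Total RNA was hybridised to A and B arrays of Affymetrix under the maker's standard protocol, per the labels. The deposited values are intensities on a linear scale, 1 per probe set and array, and the authors had scaled each array to a common trimmed mean, since every column's mean without its lowest and highest 2% is about 500.2 (A) or 500.1 (B). The sources used here give no software, background correction or detection calls. Changes are therefore relative to the array, and A and B values were not compared as levels. Symbols came from the platform annotation. Control probe sets (64 per type) and those below the 40th percentile of mean intensity were left out, leaving 13577 (A) and 13506 (B). The log2 of intensity plus 16, which understates changes of dim probe sets, was fitted with limma 3.58.1 in R 4.3.3 (1 mean per time, all 15 arrays of a type, eBayes with intensity trend), with Benjamini-Hochberg adjustment within comparison and type, and tested on simulated data. Fits without the limit serve only for dim members. All member probe sets, list genes past the threshold and the 3 most alike probe sets of up to 3 members per type with the smallest F-test p are named. The members and lists were chosen with earlier results of these data known. Alternatives were other scalings, pseudocounts, filters, no trend, a replicate block, fits to the compared times alone and leaving out each array.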

Additional observations from a re-analysis of the deposited data

How the results depend on the processing

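Of 311 recomputed counts of member probe sets past the threshold, 297 stayed as reported and 14 moved, 10 of these by leaving out 1 array. Most of the 8 counts reported were 0, and leaving out a B array cannot change the call of Foxc2, an A probe set. The F-test call of Foxc2 was lost in 13 of 23 settings. The fall of Foxc2 at 24 h passed in all 24 settings tried, with log2 changes between -1.34 and -0.87 and adjusted p between 0.0037 and 0.0462. The F-test count of 1 became 0 with median scaling (Foxc2 adjusted p = 0.0646), with no filter (0.0768) and with no trend (0.0737), and lay between 0 and 1 when each array was left out. With no filter 15 member probe sets and all dim ones entered the adjustment. For the others the cause was not tested. The count for 48 h against 24 h became 1 when only the times compared were fitted. A replicate block (the replicate number as a term) left the F-test count at 1 and the 24 h count at 1 and changed no member call, but the Tbx3 calls on the B arrays were lost (adjusted p = 0.0685 at 24 h and 0.0514 at 48 h). Deviations of arrays with the same number correlated between -0.36 and 0.42 on the A and between -0.10 and 0.11 on the B arrays. With different numbers they correlated between -0.36 and 0.47 on the A and between -0.16 and 0.17 on the B arrays. The numbers are therefore not taken to pair the arrays. The arrays brightest for Foxc2 at 0 h (replicate 3), 4 h (replicate 2) and 12 h (replicate 3) deviated alike. Their r was 0.47 for 0 with 4 h, 0.42 for 0 with 12 h and 0.33 for 4 with 12 h. The part of such shared deviations in the Foxc2 values was not tested. The Tbx3 call on the B arrays was lost in 16 of 24 settings at 24 h and in 12 of 24 at 48 h, by leaving out any of 11 and any of 7 arrays among others, and that in the F-test on the A arrays in 9 of 22. Leaving out the B array of leg muscle source name together with no filter, an alternative chosen after seeing the data, moved the dim Eya1 probe set at 48 h to -2.48 (adjusted p = 0.0295), and over all 15 B arrays left out in turn its log2 change lay between -2.48 and -1.26. Median scaling moved the median of all log2 changes by at most 0.10. A fall of the dim members Tbx1, Msc and Eya2 cannot be judged at their signal.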
